A study of Mus musculus with 3 samples.

Results

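The 44 genes described here act in mitosis, the step in which a cell separates its copied chromosomes and divides. They were taken by symbol from a list of mitotic genes whose rule uses no measured value, although the list was drawn up with earlier results of these data known. All 44 were found among the 22457 genes counted. The counts come from polyA plus RNA sequencing (RNA-seq), which reads polyadenylated transcripts, of regulatory T cells of the mouse. Regulatory T cells are CD4 T cells that restrain other immune cells and are marked by the transcription factor Foxp3. The study holds 1 group: primary cells of adult mice aged 4 months, with no genotype or treatment named, whose origin the labels give as a haematopoietic cell of bone marrow. It holds 3 libraries, called libraries 1, 2 and 3 after their technical replicate numbers, all from biological replicate 1. There was therefore no condition to compare, and every difference below is a difference between libraries of 1 biological sample. Sex was not recorded, and whether cells of several animals were pooled is not stated in the labels.

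Entry into mitosis is driven by the kinase Cdk1 with its cyclins. The kinetochore is the protein structure that joins each centromere to spindle microtubules, and the spindle checkpoint holds back chromosome separation until every kinetochore is attached. Most genes of this machinery are transcribed late in the cell cycle, so their transcripts are abundant in dividing cells and scarce in resting ones. Their promoters are known for the cell cycle genes homology region (CHR), a short element near the start site bound by the DREAM and B-Myb-MuvB complexes, and for CCAAT boxes bound by NF-Y. In bulk RNA a smaller share of dividing cells and less transcript per dividing cell cannot be told apart.

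Promoter windows reaching 250 bases before and 50 bases after the start site were taken from RefSeq for the mouse assembly GRCm38.p6, and 36 of the 44 genes had at least 1 window. Kif20a, Ccna2, Spc24, Cdc25c, Foxm1, Aurkb, Tpx2 and Incenp had none. Each window was searched on both strands for the known forms of these elements. For the CHR these were TTTGAA in the usual form, with TTCGAA as a variant that reads the same on both strands. The box bound by NF-Y was searched as CCAAT in full. For E2F, a family of cell cycle transcription factors, the first word searched was TTCCCGC, the next was TTGGCGC, and the last was TTCGCGC. A CHR word lay within 60 bases of the start in 27 of the 36 genes (75.0%), against 7.12% of the 27025 genes with a window. These 27025 genes, called all genes in this paragraph, were not limited to genes counted or tested here. A CCAAT word was present in 26 (72.2%), against 41.1% of all genes, and 17 had at least 2. Both together, a CHR word near the start and a CCAAT word anywhere in the window, were found in 23 (63.9%), against 3.00% of all genes. The E2F words were found in 6 of the 36 (16.7%), against 9.20% of all genes. These are matches of letters, not measured binding, and a window without a match shows only that these letters are not in it.

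The 6 windows below show this layout. They belong to the genes with the highest level per coding length among those with a CHR word within 60 bases of the start. Each is written 5′ to 3′ on the strand of the gene and runs from 250 bases before the start base to 29 bases after it, 280 bases in all. Capitals mark the CCAAT words and the CHR word nearest the start, either as written above or as the reverse complement. In Cdca8 the CHR word and the last CCAAT word share bases. The windows are chr7:131560120-131560399 (plus strand) for Bub3, chr5:30666636-30666915 (plus) for Cenpa, chr2:131186698-131186977 (plus) for Cdc25b, chr11:99024160-99024439 (minus) for Top2a, chr9:70421525-70421804 (minus) for Ccnb2 and chr4:124936888-124937167 (minus) for Cdca8.
Bub3: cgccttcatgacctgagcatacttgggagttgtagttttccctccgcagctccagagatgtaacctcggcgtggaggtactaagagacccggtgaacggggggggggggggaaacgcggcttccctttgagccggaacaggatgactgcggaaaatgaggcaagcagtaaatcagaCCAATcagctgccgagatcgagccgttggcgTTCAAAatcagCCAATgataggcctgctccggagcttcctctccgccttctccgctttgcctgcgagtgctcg
Cenpa: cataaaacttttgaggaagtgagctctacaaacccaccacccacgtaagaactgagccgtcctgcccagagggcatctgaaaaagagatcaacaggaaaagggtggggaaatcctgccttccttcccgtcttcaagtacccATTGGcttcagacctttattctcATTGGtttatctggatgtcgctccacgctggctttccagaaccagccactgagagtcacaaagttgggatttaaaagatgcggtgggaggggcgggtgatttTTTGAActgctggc
Cdc25b: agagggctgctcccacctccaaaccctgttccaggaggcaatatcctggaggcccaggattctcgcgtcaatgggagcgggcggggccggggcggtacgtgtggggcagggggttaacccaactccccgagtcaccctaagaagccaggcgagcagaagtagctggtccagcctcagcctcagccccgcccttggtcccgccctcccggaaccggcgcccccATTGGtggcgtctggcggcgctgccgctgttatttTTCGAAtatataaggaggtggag
Top2a: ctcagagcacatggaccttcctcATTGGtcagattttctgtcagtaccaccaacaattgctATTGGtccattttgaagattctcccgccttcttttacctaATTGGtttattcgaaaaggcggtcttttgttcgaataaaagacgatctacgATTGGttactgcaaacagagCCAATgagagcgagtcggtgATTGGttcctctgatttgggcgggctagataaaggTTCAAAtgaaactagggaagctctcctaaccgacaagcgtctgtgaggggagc
Ccnb2: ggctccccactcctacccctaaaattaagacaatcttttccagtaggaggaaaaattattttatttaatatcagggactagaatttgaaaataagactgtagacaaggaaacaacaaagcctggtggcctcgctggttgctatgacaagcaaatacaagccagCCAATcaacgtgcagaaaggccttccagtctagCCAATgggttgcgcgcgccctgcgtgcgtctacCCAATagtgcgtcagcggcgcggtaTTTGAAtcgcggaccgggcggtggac
Cdca8: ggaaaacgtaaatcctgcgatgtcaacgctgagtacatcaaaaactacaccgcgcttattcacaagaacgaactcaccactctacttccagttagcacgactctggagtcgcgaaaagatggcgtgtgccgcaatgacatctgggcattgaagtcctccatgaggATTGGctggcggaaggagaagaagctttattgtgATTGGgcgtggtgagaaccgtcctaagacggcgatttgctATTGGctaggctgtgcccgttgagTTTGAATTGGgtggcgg

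The CHR word in capitals began 43 bases before the start in Bub3 and 23 bases before it in Top2a. In Cdc25b, Ccnb2, Cdca8 and Cenpa it began 7, 4, 13 and 16 bases after the start. The windows held between 1 CCAAT word (Cdc25b) and 6 (Top2a). Top2a and Ccnb2 hold further CHR words farther upstream, which are in lower case. Among genes whose windows are not printed, Cdk1 had a CHR word 15 bases before the start together with 3 CCAAT words and 2 E2F words, and Cenpf had a CHR word near the start and 2 CCAAT words.

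**Figure D1:**
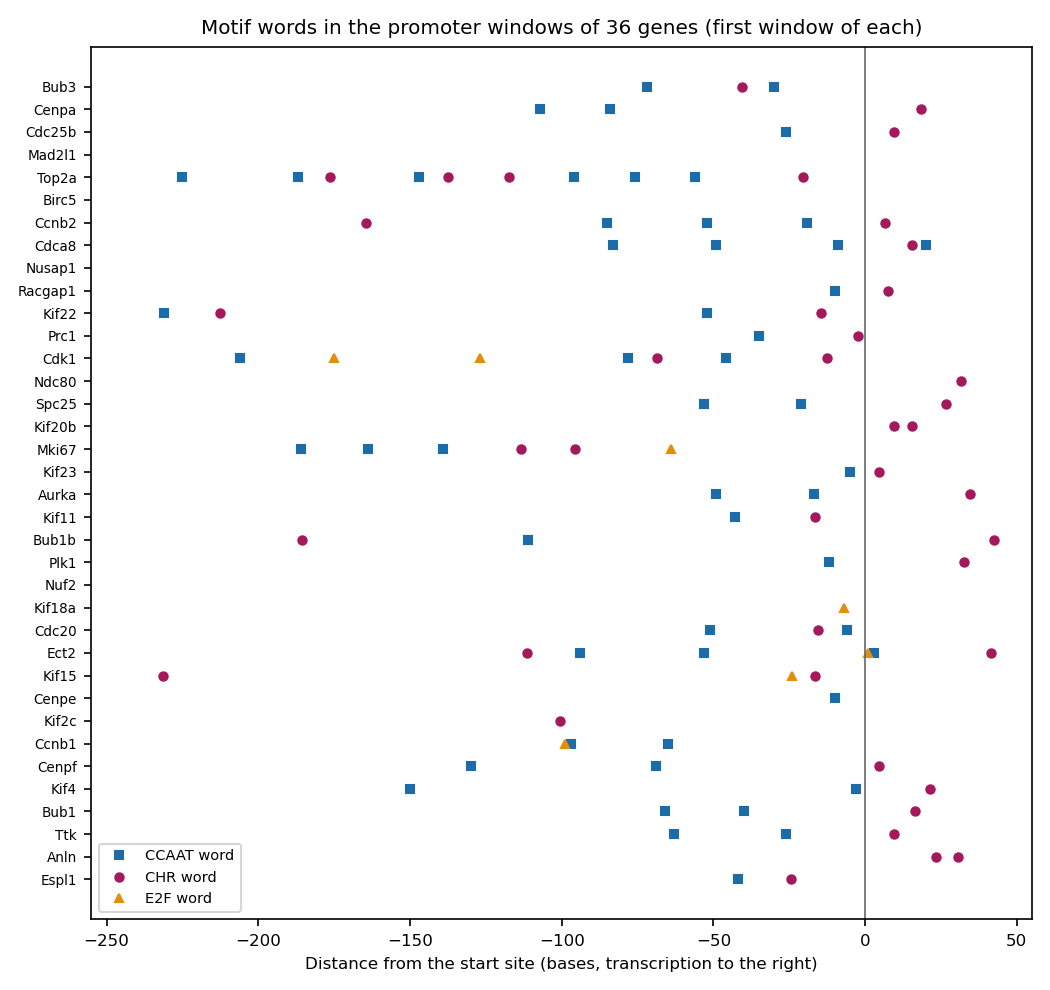
Positions of the CHR, CCAAT and E2F words in the first promoter window of each of the 36 genes with a window, as distance in bases from the start site (0), with genes ordered from highest (top) to lowest level per coding length. CHR words gather around the start site and CCAAT words mostly lie upstream of it, while Mad2l1, Birc5, Nusap1 and Nuf2 have none of these words in the window.

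All 44 genes were expressed at a measurable level. The libraries held 3206781, 3228215 and 2872350 counts, so that 1 CPM (counts scaled to a library total of 1000000) stood for 3.21, 3.23 and 2.87 counts. Each of the 44 had at least 1 CPM in all 3 libraries, 43 had at least 5 CPM, and 38 had at least 10 CPM. The median over the 44 genes was 34.9 CPM, against 18.4 CPM over the 15112 genes with a count and 48.4 CPM over the 10282 genes with a mean count of at least 10, the genes tested. Per kb of coding sequence the 44 genes were lower than most tested genes, with a median of 15.9 CPM per kb against 35.2, and 35 of the 44 lay under that median.

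The order of levels per coding kb was led by Bub3, a checkpoint protein that binds Bub1 and Bub1b, at 288 ± 19.9 CPM per kb (SD over the 3 libraries here and below). Cenpa, the histone H3 variant that marks centromeres, followed at 117 ± 13.7 CPM per kb. Both stood above the next genes by more than their SD. Cdc25b, a phosphatase that activates Cdk1, was at 75.5 ± 8.75 CPM per kb, the checkpoint gene Mad2l1 at 65.4 ± 8.44 and Top2a, the topoisomerase that untangles sister chromatids, at 60.5 ± 13.0, and these neighbours overlapped in their spread. At the other end were Espl1, the protease separase that opens cohesin, at 2.99 ± 0.762 CPM per kb, and Foxm1, a transcription factor of mitotic genes, at 3.05 ± 0.925. The order depends on the length used: per kb of merged exons Bub3 stayed first, but Cenpa took rank 15 and Mad2l1 rank 29, and 5 genes were among the top 10 by both lengths.

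**Figure D2:**
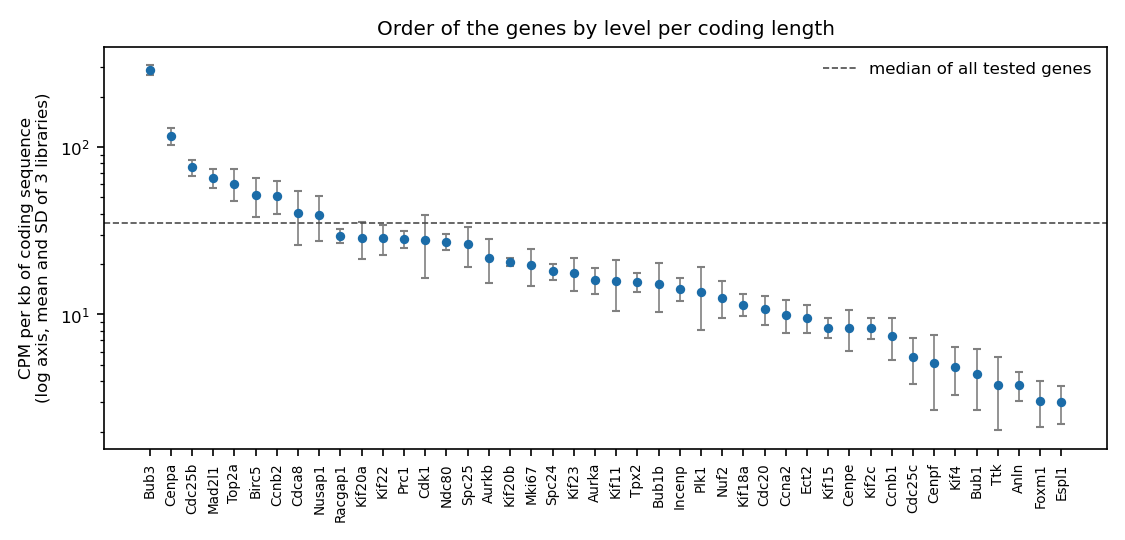
Level of each of the 44 genes as CPM per kb of coding sequence on a log axis (points, mean of 3 libraries; bars, SD), ordered from highest to lowest, with the median of all tested genes as a dashed line. Bub3 and Cenpa stand apart at the top, and 35 of the 44 genes lie below the line.

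Taken as a sum, the 44 genes held 7667, 7988 and 5344 counts in libraries 1, 2 and 3. That was 2391 CPM (exact 95% Poisson interval 2338 to 2445) in library 1, 2474 CPM (2420 to 2529) in library 2 and 1860 CPM (1811 to 1911) in library 3. The sum was 1.29 times as high in library 1 and 1.33 times as high in library 2 as in library 3, and the interval of library 3 lay apart from both others. These intervals cover counting error only.

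Gene by gene, library 3 was the lowest of the 3 in 39 of the 44 genes, whereas 32.4% of all tested genes were lowest there. On the log2 scale, the median difference of library 3 from library 1 was -0.45 over the 44 genes and -0.02 over all tested genes, and that from library 2 was -0.42 against -0.01. All but 4 of the 44 genes had under 0.2 counts per coding base, and the genes of the whole table in that range had medians of -0.05 and -0.00, with 35.1% lowest in library 3. Each gene was tested for a spread beyond counting error by a chi-square test, adjusted by Benjamini-Hochberg over all 10282 genes. It called 19 of the 44 genes (43.2%) at an adjusted p under 0.05, against 27.6% of all tested genes. Of the 19, 18 were lowest in library 3, and the exception was Ccnb2. Among all 2836 called genes, 813 were lowest there (7.91% of all tested genes). Of the 19, 8 were highest in library 1 (11.1% of all tested genes), 11 in library 2 (8.71%) and 0 in library 3 (7.75%). At an unadjusted p under 0.05 the chi-square test gave 24 of the 44. The share of all tested genes at that threshold is not given here, so this count has no background to be read against.

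The calls rest on counting error as the yardstick and on library 3. A negative binomial model, whose common coefficient of variation of 12.5% was estimated by edgeR from the same 3 libraries, called 1 of the 44 genes (Cenpf) and 0.904% of all tested genes. Without library 3 the test called 6 of the 44 (13.6%, against 19.5% of all tested genes), without library 1 it called 15 (34.1%, against 16.5%) and without library 2 it called 12 (27.3%, against 9.38%).

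**Figure D3:**
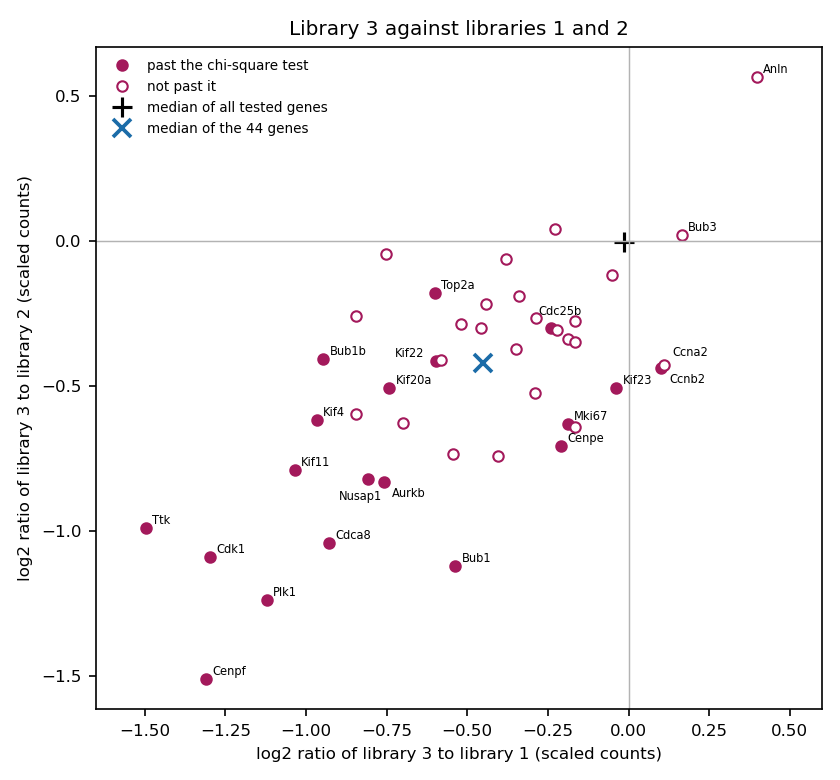
Log2 ratio of library 3 to library 1 (horizontal) and to library 2 (vertical) for each of the 44 genes, from counts scaled by library size, with genes called by the chi-square test filled and named. Most genes lie in the lower left, below both other libraries. The median of the 44 genes is at -0.45 and -0.42, and that of all tested genes is close to 0 on both axes.

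Among the genes that start mitosis, Cdk1 (chr10:69335146-69352938) was at 32.4, 28.8 and 13.2 CPM in libraries 1, 2 and 3. Libraries 1 and 2 were close together and library 3 was 2.46-fold below library 1 (95% interval 1.68 to 3.67, adjusted chi-square p = 8.34e-05). Cyclin B2 (Ccnb2, chr9:70407692-70421547) had another pattern, with 51.4, 76.8 and 55.4 CPM, so that library 2 alone was high (1.46-fold over library 1, 1.19 to 1.78, adjusted chi-square p = 0.00193). Cdc25b was at 134, 143 and 114 CPM, a 1.23-fold range (1.07 to 1.42, adjusted chi-square p = 0.0439). The other cyclins and Cdc25c did not pass the test. Cyclin A2 (Ccna2) was at 10.6, 15.8 and 11.5 CPM, cyclin B1 (Ccnb1) at 11.8, 10.2 and 6.61 CPM, and Cdc25c at 9.98, 6.81 and 5.57 CPM. Ccnb1 is uncertain as a level, because 82.7% of the 50-base words of its coding sequence also occur in other annotated transcripts, among them its pseudogene Ccnb1-ps. Foxm1 was at 9.36, 5.89 and 5.57 CPM and did not pass the test (adjusted chi-square p = 0.244).

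Of the kinases that build the spindle, Plk1 (chr7:122159439-122169873) gave 92, 103 and 38 counts, or 28.7, 31.9 and 13.2 CPM. Library 3 was 2.36-fold below library 2 (1.61 to 3.52, adjusted chi-square p = 0.000152). Aurka, which acts at spindle poles, was at 23.4, 20.4 and 16.4 CPM and did not pass the test.

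The chromosomal passenger complex, which corrects faulty attachments, consists of the kinase Aurkb, the scaffold Incenp, survivin (Birc5) and borealin (Cdca8). All 4 were lowest in library 3 and 2 passed the test, where 27.6% of all tested genes did. Cdca8 (chr4:124918465-124939311) was at 44.9, 49.9 and 23.7 CPM, 2.06-fold lower in library 3 than in library 2 (1.54 to 2.78, adjusted chi-square p = 2.06e-05). Aurkb (chr11:69045647-69051664) was at 25.3, 27.3 and 15.0 CPM, a 1.78-fold range (1.22 to 2.63, adjusted chi-square p = 0.0214). Libraries 1 and 2 lay close together in both genes. Birc5, at 22.8, 26.6 and 15.7 CPM, came near the threshold without passing (adjusted chi-square p = 0.0656), and Incenp, at 42.4, 39.0 and 31.0 CPM, was farther from it (0.157).

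At the centromere and kinetochore, all 7 genes were lowest in library 3 and 2 passed the test (28.6%, close to the 27.6% of all tested genes). Cenpf (chr1:189640606-189688086), a large protein of the outer kinetochore, had 171, 203 and 62 counts, or 53.3, 62.9 and 21.6 CPM. Library 3 was 2.85-fold below library 2 (2.13 to 3.85, adjusted chi-square p = 2.28e-11), and Cenpf was also past the negative binomial model (adjusted p = 0.0167, edgeR common dispersion). Cenpe (chr3:135212537-135273611), the kinesin that carries chromosomes to the spindle equator, was at 55.8, 80.8 and 48.4 CPM, so that library 2 was high and the others were closer together (1.63-fold, 1.32 to 2.02, adjusted chi-square p = 4.27e-05). The remaining 5 did not pass. Cenpa was at 47.7, 52.0 and 41.1 CPM. Of the NDC80 complex, which grips microtubules, Ndc80 was at 55.5, 56.1 and 45.6 CPM, Nuf2 at 20.3, 19.8 and 12.5, Spc24 at 10.9, 12.1 and 9.75, and Spc25 at 17.5, 22.6 and 13.2. Within this complex Ndc80 was above Nuf2 per coding kb by 0.98, 1.03 and 1.39 on the log2 scale in libraries 1, 2 and 3, so that these 2 subunits were not at equal transcript levels in any library.

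In the spindle checkpoint 3 of 5 genes passed the test (27.6% of all tested genes did). Bub1b (chr2:118598211-118641591), which blocks the anaphase-promoting complex, was at 64.9, 45.9 and 33.8 CPM, and the 3 libraries were spread out (1.93-fold, 1.51 to 2.48, adjusted chi-square p = 3.03e-06). Bub1 (chr2:127801122-127831865), a checkpoint kinase at the kinetochore, was at 13.1, 20.1 and 9.05 CPM, highest in library 2 (2.17-fold, 1.36 to 3.57, adjusted chi-square p = 0.0108). Ttk (chr9:83834689-83872389), the kinase that starts the checkpoint signal, had only 44, 32 and 14 counts and the wide interval that goes with them, 2.82-fold (1.52 to 5.58, adjusted chi-square p = 0.0114). Mad2l1 was at 39.9, 45.5 and 35.2 CPM and did not pass. Bub3 went the other way: with 259, 294 and 291 CPM it was lowest in library 1 and did not pass (adjusted chi-square p = 0.104). Neither of the anaphase genes passed the test, with Cdc20, which activates the anaphase-promoting complex, at 18.7, 17.0 and 12.5 CPM and Espl1 at 17.2, 24.5 and 15.3 CPM.

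All 8 spindle kinesins and microtubule factors were lowest in library 3, and 4 passed the test (27.6% of all tested genes did). Kif11 (chr19:37376403-37421859), the motor that pushes spindle poles apart, was at 63.3, 54.8 and 31.0 CPM, 2.05-fold lower in library 3 than in library 1 (1.59 to 2.66, adjusted chi-square p = 1.69e-06). Nusap1, which bundles microtubules near chromosomes, was at 57.7, 59.8 and 33.1 CPM (1.77-fold, 1.38 to 2.28, adjusted chi-square p = 6.97e-05). The chromosome-bound kinesins Kif22, at 66.1, 59.8 and 43.9 CPM, and Kif4, at 23.1, 18.6 and 11.8 CPM, also passed, with 1.51-fold and 1.96-fold ranges. In all 4 genes libraries 1 and 2 were nearer to each other than either was to library 3. Kif15, Kif18a, Kif2c and Tpx2 did not pass, with ranges between 1.27-fold (Tpx2) and 1.36-fold (Kif18a).

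Of the 7 genes of the spindle midzone and cytokinesis, 5 were lowest in library 3 and 2 passed the test (28.6%, again close to 27.6%). Kif20a (chr18:34624613-34633277), a midzone motor, was at 92.3, 80.5 and 55.4 CPM (1.67-fold, 1.37 to 2.04, adjusted chi-square p = 1.82e-05), with the caution that 29.3% of its exon bases overlap those of Cdc23. Kif23 (chr9:61915905-61946774), a subunit of the centralspindlin complex, was at 44.9, 63.8 and 43.9 CPM, high in library 2 and nearly equal in the others (1.42-fold, 1.13 to 1.79, adjusted chi-square p = 0.0076). Its partner Racgap1 was at 61.4, 52.4 and 52.6 CPM and did not pass. Anln, the actin-binding anillin of the cleavage furrow, was highest in library 3 at 11.8, 10.8 and 15.7 CPM, without passing the test (adjusted chi-square p = 0.331). Prc1, Kif20b and Ect2 did not pass either, and Kif20b was the steadiest of the 44 at 108, 116 and 104 CPM (1.08-fold, 0.929 to 1.27).

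The genes with the most counts after Bub3 were Top2a and Mki67, both widely used as marks of dividing cells. Top2a (chr11:98992943-99024189) gave 1099, 848 and 651 counts, or 343, 263 and 227 CPM. Library 2 lay in between, and library 1 was 1.52-fold over library 3 (1.38 to 1.67, adjusted chi-square p = 1.7e-16). Mki67 (chr7:135689784-135716361), which coats mitotic chromosomes, gave 553, 776 and 436 counts, or 172, 240 and 152 CPM. Here library 2 was highest, 1.55-fold over library 3 (1.37 to 1.74, adjusted chi-square p = 2.24e-12). Between libraries 1 and 2 these genes went opposite ways: by the 2-sided exact binomial test, unadjusted, Top2a was higher in library 1 (p = 1.67e-10) and Mki67 in library 2 (p = 3.53e-08). By that test, at an unadjusted p under 0.05, Ccnb2, Cenpe, Bub1 and Kif23 were also higher in library 2. Bub1 was close to the threshold (exact binomial p = 0.0494). Bub1b was, like Top2a, higher in library 1. The share of all tested genes past the binomial test is not given here, so these names have no background to be read against. With library 3 left out, the chi-square test called 19.5% of all tested genes.

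**Figure D4:**
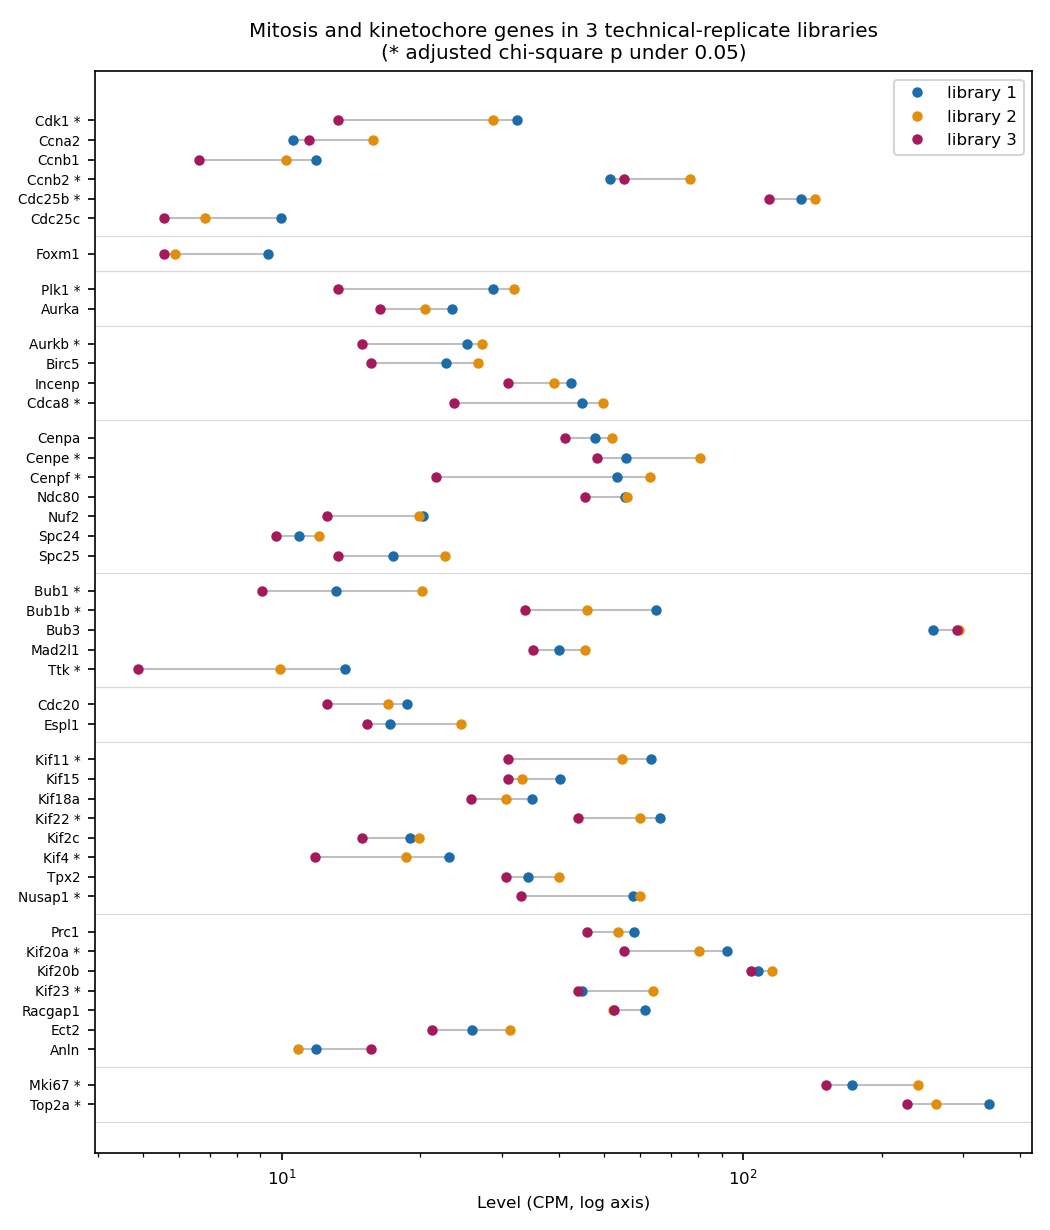
Level of each of the 44 genes in libraries 1, 2 and 3 (points, CPM on a log axis), grouped from top to bottom by role from mitotic entry to chromosome structure, with a star on genes past the chi-square test. Library 3 is the leftmost point in most rows, while Bub3 and Anln are among the rows where it is not.

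Other cell cycle genes were read from 7 lists, of which the genes below were named by level per coding kb and by size of difference. Their counts are to be read beside all tested genes, of which 27.6% passed the test and 32.4% were lowest in library 3. Of 37 tested further kinetochore and centromere genes 10 passed the test (27.0%, close to the share of all tested genes) and 21 were lowest in library 3 (56.8%, median log2 difference of library 3 from library 1 -0.16). Cenpi, a subunit of the inner kinetochore, was at 15.0, 21.7 and 9.05 CPM and Sgo2a, which shields centromeric cohesin, at 10.3, 14.9 and 6.27 CPM. Both passed the test and were lowest in library 3. The steadier Zwint, at 120, 122 and 111 CPM, Cenpx and Mis18a had the highest levels per coding kb of this list and did not pass. Of 27 further spindle and cytokinesis genes 14 passed and 17 were lowest in library 3 (median -0.28), led by Kif18b with 24, 18 and 2 counts and Troap with 12, 25 and 4 counts, which passed on few counts. In the same list Mapre1 and Rhoa, which serve the cytoskeleton of all cells, passed with library 3 highest.

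Of 20 further mitotic kinases and phosphatase regulators 4 passed and 10 were lowest in library 3 (median -0.13). Mastl, the kinase that restrains the opposing phosphatase, passed at 13.1, 14.6 and 5.22 CPM, and Ccnf passed at 18.7, 32.8 and 21.2 CPM. Of 18 genes of the anaphase-promoting complex and its partners 4 were lowest in library 3 (median 0.03) and 7 were called. The core subunits Anapc1, at 408, 317 and 374 CPM, Anapc5, at 415, 300 and 343 CPM, and Cdc23, at 235, 173 and 204 CPM, were called with library 1 highest and library 2 lowest. The core subunit Anapc4 was called too, at 294, 279 and 334 CPM, but with library 3 highest. The partner enzyme of the complex, Ube2c, was at 20.6, 35.0 and 16.7 CPM and Fzr1, an activator, at 45.5, 70.6 and 44.6 CPM, both past the test with library 2 high. Pttg1, the separase inhibitor securin, was called at 157, 195 and 161 CPM. These 4 further mitosis lists together had 52 of 102 genes lowest in library 3 (against 32.4% of all tested genes) and 35 called (34.3%, against 27.6%).

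Of 28 DNA replication genes 10 were lowest in library 3 and 6 were called (median log2 difference of library 3 from library 1 -0.06). The helicase gene Mcm4 was called at 373, 333 and 347 CPM, while Pold1, a DNA polymerase subunit, was called at 104, 179 and 107 CPM with library 2 alone high. Of the 6 called genes 3 were lowest in library 3, among them Uhrf1 at 28.1, 39.7 and 19.8 CPM. Of 21 genes of the DREAM, B-Myb and E2F regulators 5 were lowest in library 3 and 3 were called (median 0.09). None of the 3 was lowest there. Of 12 tested cyclin-dependent kinase inhibitors and G0 or G1 genes 5 were lowest in library 3 and 4 were called (median 0.04), among them Cdkn2c, which was lowest in library 3, at 19.3, 27.9 and 12.9 CPM, and Btg1, a growth inhibitor, which was lowest in library 1, at 48.3, 73.4 and 78.7 CPM. These counts describe the lists, and the differences between lists were not tested.

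**Figure D5:**
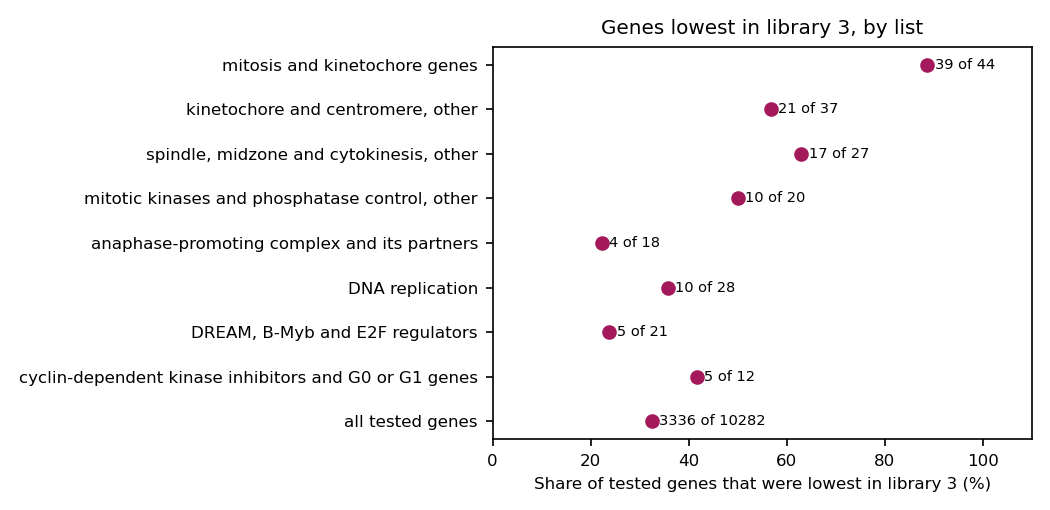
Share of tested genes with their lowest scaled count in library 3, in percent, for the 44 genes, 7 other cell cycle lists and all tested genes (points, with the numbers beside them). The 44 genes are at 39 of 44, the further spindle and kinetochore lists are lower at 17 of 27 and 21 of 37, and all tested genes are at 32.4%.

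The labelled cell type was checked against its markers, and markers of other cells moved between the libraries too. The counts of called markers are to be read beside all tested genes, of which 27.6% were called. Counts of 1 of 5 (20.0%) or 1 of 3 (33.3%) lie close to that share. Foxp3 was at 142, 157 and 150 CPM and Cd4 at 618, 533 and 501 CPM, while Cd8a was at 4.37, 5.58 and 11.1 CPM. Of the other CD8 T cell markers, Cd8b1 was higher, at 23.4, 28.8 and 27.9 CPM, and was not called. Cd8a was called with library 3 highest, whereas Runx3, at 7.17, 11.8 and 4.53 CPM, was called with library 3 lowest. The 12 regulatory T cell markers summed to 5854, 5703 and 5808 CPM, a sum without the lower level of library 3 that hides members going both ways. Of the 12, 5 were called: Cd4 and Nrp1 (878, 854 and 751 CPM) were lowest in library 3, and Il2ra, Cd3g and Lck were highest there. The 9 B cell markers summed to 273, 343 and 460 CPM, and 6 of the 8 tested were called with library 3 highest in each. The 12 erythroid markers summed to 174, 332 and 331 CPM with 9 of 9 tested called. Gata1, at 80.8, 60.7 and 76.6 CPM, and Tfrc, at 83.9, 45.5 and 69.6 CPM, made up most of this sum in library 1 and were highest there. The other 10 erythroid markers summed to 9.36, 226 and 185 CPM, and the 4 globin genes among them had no count in library 1. The 12 neutrophil markers summed to 2.18, 84.6 and 11.1 CPM with 4 of 4 tested called and library 2 highest. Plasma cell markers summed to 233, 326 and 266 CPM (1 of 5 tested called), monocyte markers to 79.5, 85.5 and 104 (3 of 5) and NK cell markers to 134, 164 and 181 (2 of 3). CD8 T cell markers summed to 38.4, 49.3 and 47.3 CPM (2 of 3 called), immature thymocyte markers to 242, 217 and 262 (1 of 3) and haematopoietic progenitor markers to 8.11, 9.29 and 12.9 (1 of 2). Themis, at 156, 130 and 177 CPM, and Cd1d1, at 83.6, 81.2 and 83.2, made up most of the thymocyte sum. Nkg7, at 99.5, 124 and 124 CPM, made up most of the NK cell sum. In the plasma cell sum, Prdm1 was at 101, 92.6 and 97.1 CPM and the called gene Jchain at 28.7, 120.5 and 44.9 CPM. Whether these transcripts came from such cells or from regulatory T cells was not tested. Prtn3, Ctsg, Gata2, Rag1, Rag2 and Ptcra had no count in any library, which allows up to 0.936, 0.929 and 1.04 CPM for each (3 counts). The part of these other cells in the lower level of the mitotic genes in library 3 was not tested.

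Counting could blur some of the 44 genes. In 20 of them part of the coding sequence also occurs in other annotated transcripts, with over 10% of 50-base words shared in Ccnb1, Kif20a, Cdc20, Plk1, Racgap1 and Mad2l1. Exons of 10 genes overlap another gene, by over 10% of exon bases in Kif20a, Kif4, Cdc25c, Ccna2 and Prc1, and since the strand setting is not given, reads of overlapping genes cannot be told apart. Of the 20 genes with neither, 9 were called (45.0%, against 27.6% of all tested genes) and 18 were lowest in library 3 (against 32.4%).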

How the data were processed

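The 3 deposited files list raw counts of 22457 genes, obtained by the authors with GENCODE M4 on mm10, per the file descriptions deposited with them. RNA was sheared before library construction, per the labels. Which aligner and counter were used, with which strand setting, and how duplicates were treated is not given in the sources used here. Names, coordinates and lengths come from GENCODE M21 on the same assembly. Of the identifiers 22195 matched and 262 did not (0.117% of counts).

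CPM was computed on total counts. Genes with a mean count of at least 10 were tested by a chi-square statistic that sets the 3 counts against the Poisson expectation (2 degrees of freedom), with totals times TMM factors from edgeR 4.0.16 in R 4.3.3 as library sizes and Benjamini-Hochberg adjustment over all 10282. The lowest and highest library of a gene were taken from the same scaled counts. Fold intervals (95%) compare the highest with the lowest library by the exact binomial (Clopper-Pearson), cover counting error only, and were taken between extremes chosen by their values. P-values measure the spread between technical replicates, not between animals. The test was checked on simulated Poisson counts, which hold counting error alone. That check therefore does not cover the further spread between these libraries.

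The members and lists were chosen with earlier results of these data known. The rule for names took all 44 members. From each pathway list it took 3 genes by level per coding kb and the 2 called genes with the largest difference, and from each marker list the 2 highest genes and those with no count, of which only part is printed. Foxp3, Cd4 and Cd8a were named as markers that define the cell type, and Anapc1, Anapc4, Anapc5, Cdc23, Il2ra, Cd3g and the globin genes were named after their values were seen. The alternatives tried were scaling by DESeq2 1.42.0 or by plain totals, a negative binomial model, other filters on counts, a limit of 0.5 counts per coding base, and each library left out. A correction for coding GC content and length, a mean count of at least 100, the count of genes lowest in library 3, and the restriction to genes without shared words or overlaps were chosen after seeing the data. The software was scipy 1.17.1, numpy 2.4.6 and pandas 2.3.3 under Python 3.11.15, with figures from matplotlib 3.10.9.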

Additional observations from a re-analysis of the deposited data

How the results depend on the processing

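The count of called mitotic genes was 19 with DESeq2 size factors (27.6%) and with genes of 0.5 or fewer counts per coding base (24.0%). Brackets give the share of all tested genes that was called. The count was 20 with plain totals (27.9%), where Bub3 was added. It was 18 without a count filter (17.7%) and with trends in coding GC content and length removed (23.1%), Cdc25b being lost in both. At a mean count of at least 50 it was 17 of 36 (33.2%). Under the negative binomial model it was 1, and that of all genes 93, against 2836 with counting error alone. Its dispersion comes from the same 3 libraries, which is all the replication there is. Leaving out 1 library at a time gave 6 to 15 called mitotic genes and 960 to 2014 called genes in all, and the lowest count of mitotic genes came without library 3. The number of mitotic genes lowest in library 3 was 39 with DESeq2 size factors and with plain totals, against 31.7% and 34.2% of all tested genes. It was 40 with the trends removed, against 32.4%. With library 2 or library 1 left out it was 40 and 41 of 44, against 52.1% and 50.7% of all genes in those pairs. At a mean count of at least 100, where fewer genes were tested, it was 20 of 23, against 29.6% of all tested genes. Among the 20 mitotic genes without shared words or overlaps 9 were called (45.0%). That count comes from the main fit over 10282 genes, of which 27.6% were called. The median level ranged from 33.4 to 36.9 CPM and the mean summed level from 2126 to 2433 CPM when 1 library was left out. No paired analysis was possible because the study has 1 group. Depth limits the genes with few counts: Foxm1 had 16 counts in library 3, and its 1.68-fold range did not pass the test, while the 1.52-fold range of Top2a did.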
